A study of Gracilariopsis lemaneiformis with 12 samples.

Results

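The question was whether the effect of indole-3-acetic acid (IAA) on the transcriptome of Gracilariopsis lemaneiformis was the same at day 3 as at day 1. For each locus the difference was (IAA minus control at day 3) minus (IAA minus control at day 1), on a log2 scale. It used all 12 of the 12 libraries in the series, 3 in each of 4 groups. The labels place every library in strain 981, under the tissue label rhizoids. The groups are untreated controls at day 1, tissue given 100 µM IAA for 1 day, untreated controls at day 3, and tissue given 100 µM IAA for 3 days. The submitters' design text also names branches. It can be read as other tissue on the other day, so day and tissue cannot be told apart where the days are compared. Nothing in the labels says that replicates came from separate cultures, and the p-values measure only the spread between these libraries.

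Gracilariopsis lemaneiformis is a red seaweed that is farmed for agar, the gelling polysaccharide of its cell wall. IAA is the main natural auxin. In land plants auxin binds receptors in the nucleus, which leads to the breakdown of repressor proteins and switches on early response genes, and it controls cell expansion and branching. Some early auxin response genes of land plants are induced only briefly while auxin stays present, so an effect at a first time point need not persist at a later one. How red algae perceive auxin is much less well known. No file used here pairs a sequence ID with a gene name, so no role is given to any locus. At most 2 IDs are named in each direction, and other loci are described without their ID.

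A locus was either a single assembled sequence, with an ID that begins with Unigene, or a cluster, with the contigs that share the ID text before the contig number summed. The deposited FPKM values (fragments per kilobase of sequence, relative to library size) gave 25766 loci, and 11044 of them, 1911 clusters and 9133 single sequences, had a mean of at least 1 FPKM and were tested. The summed FPKM of a library lay between 291205 and 308835. FPKM keeps no read total, but low values fell on steps of 1 read, from which the relative depth was 0.977 to 1.02 over the libraries. This depth followed the groups. It was 1.012 to 1.019 in day-1 controls and 1.004 to 1.008 with IAA at day 1. Day-3 controls were at 1.000 to 1.001 and day-3 IAA libraries at 0.977 to 0.982. Across tested loci, the 12 pairs of libraries from the same group had a Pearson's r of 0.990 to 0.993, and the 54 other pairs had one of 0.963 to 0.985. Loci are not independent replicates in these values. The IAA effect at both days and the change over time come from the same fit and share libraries with the difference. They describe how a difference is made up and are no independent evidence for it.

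The effect of IAA differed between the days for a large part of the transcriptome. By limma with Benjamini-Hochberg adjustment, 3907 loci had a more positive effect at day 3, 35.4% of those tested, and 846 loci had a more negative one, 7.66%. On the log2(FPKM + 1) scale most called differences were below 1 in size. At least 1 was reached by 662 of the positive and 60 of the negative ones, which are 5.99% and 0.543% of the tested loci. Adding 1 FPKM shrinks the differences of low loci. With 0.1 FPKM added instead, 1970 of 3979 positive and 76 of 838 negative differences were at least 1. Over all 11044 loci the median difference was 0.27, because the median IAA effect was -0.07 at day 1 and 0.21 at day 3.

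The balance of positive and negative differences depended on how the libraries were scaled. Positive differences were 82.2% of the calls as deposited and 81.8% when libraries were scaled to loci of 20 FPKM or more. With size factors from the median of ratios they were 32.8%, and after quantile normalization 44.6%. Relative to the deposited values these last 2 scalings moved the median difference of all loci by -0.29 and -0.28. The classes of abundance moved differently. Quantile normalization moved the median of loci of 1 to 5 FPKM most, by -0.45, against -0.04 in the class of 20 FPKM or more, while size factors moved these medians by -0.23 and -0.42. Among loci of 1 to 5 FPKM, as deposited, 2206 of 5992 were positive and 60 negative, with a median difference of 0.47, against 1064 and 246 with size factors (median 0.24) and 275 and 409 after quantile normalization (median 0.02). Among the 3238 loci of 20 FPKM or more, 855 were positive and 654 negative as deposited, with a median of 0.01. The corresponding numbers were 629 and 806 after quantile normalization (median -0.03) and 210 and 2660 with size factors (median -0.41).

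**Figure D1:**
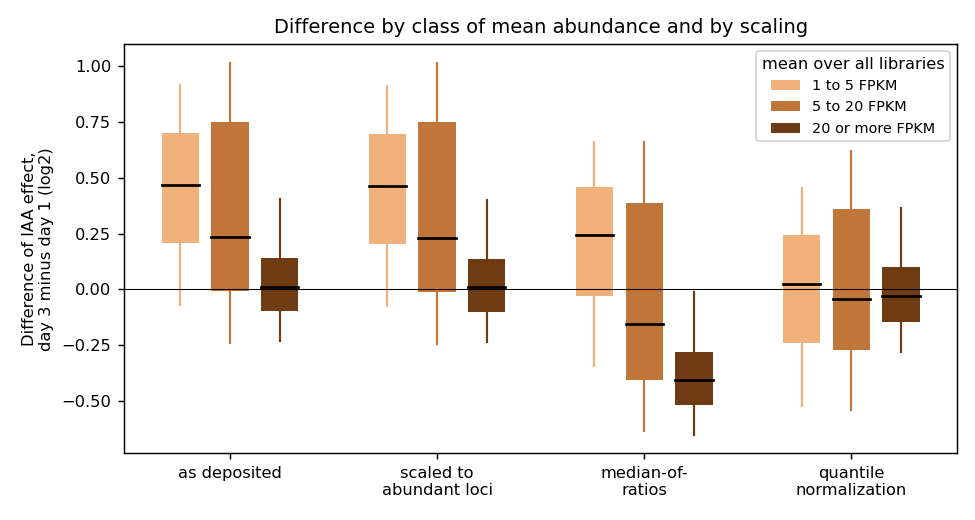
Difference of the IAA effect between days (log2, day 3 minus day 1) for tested loci in 3 classes of mean FPKM under 4 scalings; black lines are medians, boxes the middle 50% and thin lines the 10th to 90th percentiles of loci. The median of the class of 1 to 5 FPKM goes from 0.47 as deposited to 0.02 after quantile normalization, and that of the class of 20 FPKM or more from 0.01 to -0.41 with median-of-ratios size factors.

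Libraries differed in how much of their summed FPKM lay in low loci. Loci of 1 to 5 FPKM took 4.72 ± 0.260% of the summed FPKM in the day-1 controls, and 4.40 ± 0.146% in the day-1 IAA libraries (SD, n = 3). In the day-3 controls the share was 2.70 ± 0.0800%, and in the day-3 IAA libraries 3.92 ± 0.0440% (SD, n = 3). The day-3 controls were the lowest group, and all 3 lay below every other library. Loci listed at 0 numbered 5849 to 6032 in day-1 controls, 5579 to 5644 with IAA at day 1, 6644 to 6833 in day-3 controls and 6149 to 6172 with IAA at day 3. No 2 of these ranges overlap. IAA libraries thus had fewer loci at 0 than controls on both days, and the gap between the group means was wider at day 3. In bulk tissue, fewer cells of a type and less RNA per cell cannot be told apart, and the part of these shifts in the differences of single loci was not tested.

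The rest of the description uses the loci that were called in the same direction as deposited, with size factors, when scaled to abundant loci and after quantile normalization. There were 856 with a more positive effect at day 3, 7.75% of those tested, and 806 with a more negative one, 7.30%. All 856 positive loci were also called without each library in turn, and 650 of the 806 negative ones were, both checked on the values as deposited only. The positive set had the larger median difference as deposited, so these counts do not show that either direction is sturdier. The sets differ in abundance. Of the positive loci 275 were in the class of 1 to 5 FPKM and 371 in that of 5 to 20 FPKM. The top class of at least 20 FPKM held 210. These are 32.1%, 43.3% and 24.5%, beside 54.3%, 16.4% and 29.3% of all tested loci. In the negative set 60 loci were in the lowest class and 615, or 76.3%, in the top class. These numbers follow partly from the scalings, since a locus had to be called under each. The 275 are as many as quantile normalization called in that class, and the 210 as many as size factors did. The 60 are as many as were called there as deposited. Clusters were 92 of the positive and 243 of the negative loci, which are 10.7% and 30.1%, beside 17.3% of all tested loci. As deposited, the positive set had a median difference of 1.04 and 494 loci at 1 or more, and the negative set a median of -0.29 and 60 loci at -1 or less. The medians were 0.67 and -0.36 after quantile normalization and 0.69 and -0.70 with size factors, so whether the sets differ in size depends on the scaling.

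In the positive set the typical locus went down over time in controls and stayed level under IAA. The median change from day 1 to day 3 was -1.07 in controls and -0.02 with IAA on the log2 scale. Over all tested loci these medians were -0.35 and -0.07. The medians were -1.05 and -0.01 when scaled to abundant loci. They were closer together with size factors, at -0.62 and 0.10, and after quantile normalization, at -0.58 and 0.03. In controls, as deposited, 779 of the 856 were called lower at day 3 and 37 higher, beside 57.8% and 13.6% of all tested loci. With IAA, 197 were called lower and 199 higher, beside 20.7% and 13.3%. The median IAA effect of these loci was -0.19 at day 1 and 0.82 at day 3 as deposited, and -0.13 and 0.50 after quantile normalization. All 3 IAA libraries lay above all 3 controls at day 3 for 829 of them, against 46.0% of all tested loci. At day 1 all IAA libraries lay below all controls for 439 loci and above for 41, against 22.7% and 9.63% of all tested loci.

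In the negative set the typical locus went up in controls, and its change under IAA depended on the scaling. The median change over time was 0.16 in controls and -0.12 with IAA as deposited, and 0.22 and -0.13 after quantile normalization. With size factors the values were 0.71 and 0.01. As deposited, 526 of the 806 were called higher at day 3 in controls and 81 lower, beside 13.6% and 57.8% of all tested loci. With IAA 86 were called higher and 423 lower, beside 13.3% and 20.7%. The median IAA effect of these loci was 0.14 at day 1 and -0.14 at day 3 as deposited, 0.17 and -0.18 after quantile normalization, and 0.22 and -0.48 with size factors. All 3 IAA libraries lay below all 3 controls at day 3 for 556 loci, against 14.5% of all tested loci, and above them at day 1 for 500, against 9.63%.

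**Figure D2:**
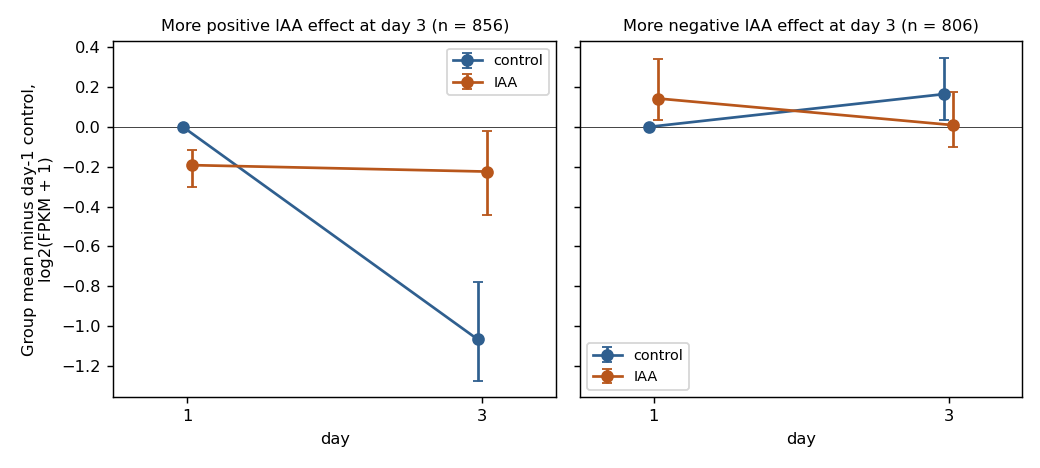
Median over loci of the group mean minus the mean of day-1 controls, on the log2(FPKM + 1) scale, by day and treatment, with bars for the middle 50% of loci. The left panel shows the 856 loci with a more positive IAA effect at day 3 under 4 scalings, where day-3 controls lie at -1.07 and both IAA groups near -0.2. The right panel shows the 806 loci with a more negative effect, where IAA at day 1 and controls at day 3 lie at 0.14 and 0.16.

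A positive difference can come from a late rise, an early fall that ended, or both. The calls on single days are as deposited. Of all tested loci, 6.44% had a called rise and 12.5% a called fall under IAA at day 1. At day 3 these shares were 38.8% and 10.9%. In the positive set 578 of the 856 loci were higher with IAA at day 3 and not called at day 1, with median effects of 0.85 and -0.16. A further 217 loci were lower with IAA at day 1 and higher at day 3, with medians of -0.35 and 0.71. There were 31 loci that were higher on both days and more so at day 3, with medians of 0.75 and 2.50, and 23 that were lower at day 1 and not called at day 3. In 6 loci the effect was lower on both days and weaker at day 3, and 1 locus was called on neither day. Calls at a given day depend on the spread of the locus, estimated over all 4 groups together. The absence of a call is thus not evidence of no effect.

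The negative set had a more even make-up. The largest group, 299 of the 806 loci, was lower with IAA at day 3 and not called at day 1, with a median effect of -0.19 at day 3. In 183 loci IAA was higher at day 1 and lower at day 3, with medians of 0.27 and -0.22. In 170 loci it was higher at day 1 with no call at day 3, with medians of 0.31 and -0.01. A weaker rise at day 3 than at day 1 was seen in 63 loci, with medians of 0.59 and 0.20. In 38 loci IAA was lower on both days and more so at day 3, and 53 were called on neither day.

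**Figure D3:**
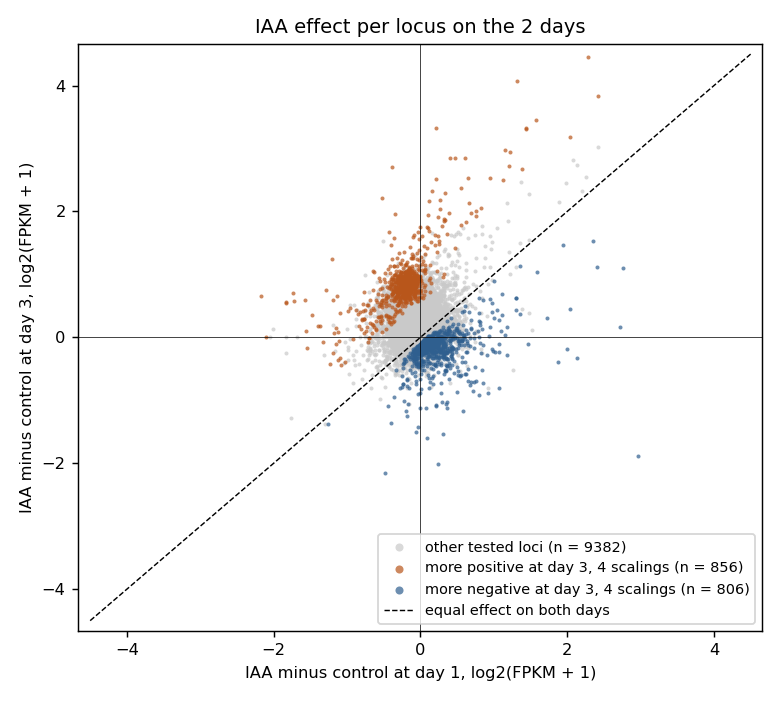
IAA effect per locus at day 1 (x axis) and at day 3 (y axis), both as IAA minus control on the log2(FPKM + 1) scale, with the 856 positive and 806 negative loci of the 4 scalings in colour. Points on the dashed line had the same effect on both days, and the densest group of positive loci lies near the medians of -0.19 at day 1 and 0.82 at day 3.

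Large IAA effects on the single days were followed across to the other day. Since the loci were picked for their size on a day that enters the difference, these counts are a description. Effects and calls are as deposited. Rises of at least 1 were called for 0.570% of tested loci at day 1 and 2.31% at day 3, and falls of that size for 0.353% and 0.235%. Of the 63 loci that were at least 1 higher with IAA at day 1, 31 had a negative difference, 23 a positive one and 9 no call. Their median effect was 1.38 at day 1 and 1.12 at day 3. Of the 39 loci that were at least 1 lower at day 1, 35 had a positive difference, with a median effect over the 39 of -1.30 at day 1 and 0.06 at day 3. Of the 255 loci at least 1 higher at day 3, 225 had a positive difference and 6 a negative one, with medians of 0.10 at day 1 and 1.24 at day 3. Of the 26 loci at least 1 lower at day 3, 23 had a negative difference and 3 no call, with medians of -0.02 and -1.17. Rises of at least 1 on both days were seen in 35 loci, of which 23 had a larger rise at day 3, 6 a smaller one and 6 no call.

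The 4 group means of a locus were next compared to see whether a single group stood apart. A group was counted as apart where its gap to the nearest other mean was at least 2 times the range of the other 3 means on the log2 scale. This rule was chosen after the data were seen. A group apart gives a difference by itself, so shares above those of all tested loci follow partly from how the sets were picked. In the positive set the day-3 controls were the low group in 393 of the 856 loci, against 18.3% of all tested loci. In the median of these 393 loci, day-1 controls were at 8.10 FPKM, IAA at day 1 at 7.22 FPKM, day-3 controls at 3.27 FPKM and IAA at day 3 at 7.003 FPKM. The IAA libraries of day 3 stood apart as the high group in 39 loci, 4.56% against 1.19% of all tested loci. Day-1 controls were the high group in 15 (1.75% against 2.25%) and IAA at day 1 the low group in 11 (1.29% against 1.70%), shares no higher than among all tested loci. No group stood apart in the other 398, 46.5% against 71.9%. The same rule gave 328 loci with low day-3 controls with size factors, 426 when scaled to abundant loci and 249 after quantile normalization, so this was the most frequent single-group form under all 4 scalings.

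In the negative set 83 loci had day-3 controls as the high group, 68 had IAA at day 1 as the high group, 46 had day-1 controls as the low group and 44 had IAA at day 3 as the low group. These are 10.3%, 8.44%, 5.71% and 5.46% of the set, against 1.55%, 1.16%, 0.742% and 1.19% of all tested loci. The other 565, 70.1%, had no group apart, close to the 71.9% of all tested loci. High day-3 controls numbered 271 with size factors, 79 when scaled to abundant loci and 96 after quantile normalization. High IAA at day 1 numbered 13, 79 and 67. No other single-group form exceeded high day-3 controls under any of the 4 scalings, but its lead over the other forms depended on the scaling.

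**Figure D4:**
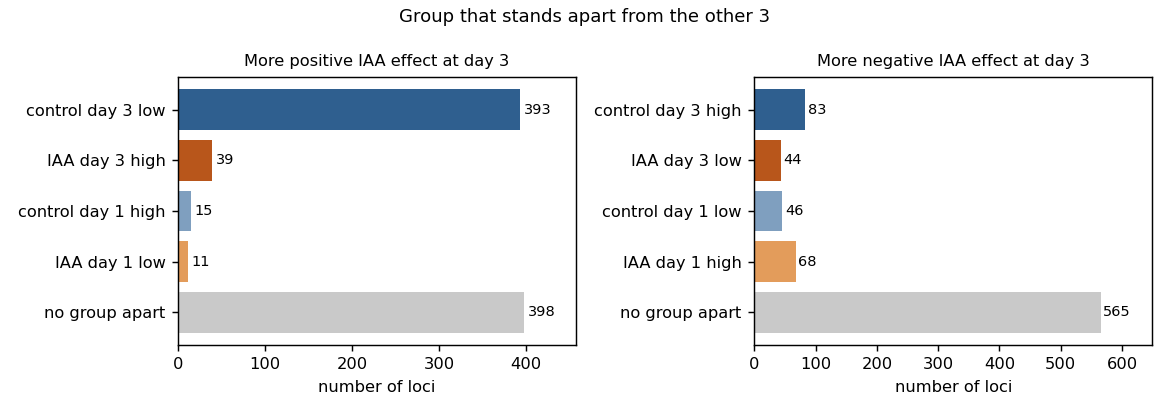
Number of loci in which a single group mean stood apart from the other 3, as deposited, among the 856 positive (left) and 806 negative (right) loci of the 4 scalings; grey bars are loci with no group apart. Low day-3 controls make up 393 of the positive loci, and no form exceeds 83 among the negative loci.

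By the naming rule, the largest positive difference was in Unigene8489_All. Its FPKM was 1.27, 1.06 and 1.10 in day-1 controls, 1.29, 1.28 and 1.95 with IAA at day 1, 0.22, 0.31 and 0.27 in day-3 controls and 10.84, 10.83 and 13.40 with IAA at day 3. The day-3 IAA libraries stood far above all others, and the day-3 controls below all others. The IAA effect was 0.22 ± 0.13 at day 1 (SE; limma adjusted p = 0.29) and 3.32 ± 0.13 at day 3 (limma adjusted p = 1.43e-09). The difference was 3.10 ± 0.18 (SE; limma adjusted p = 8.09e-08), and it was 4.66 with a pseudocount of 0.1 FPKM in place of 1.

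Unigene5161_All had almost the same difference, 3.10 ± 0.13 (SE; limma adjusted p = 5.33e-09). On day 1 it was at 1.07, 1.25 and 1.08 FPKM in controls, and the IAA libraries had 0.54, 0.72 and 0.63 FPKM. At day 3 it was at 1.82, 1.45 and 1.54 FPKM in controls and at 15.93, 15.66 and 16.42 FPKM with IAA. IAA libraries were below all controls at day 1 and above all controls at day 3. The effects were -0.39 ± 0.09 (SE; limma adjusted p = 0.0098) and 2.71 ± 0.09 (limma adjusted p = 6.39e-10).

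The largest negative difference was in Unigene1707_All, at -4.85 ± 0.70 (SE; limma adjusted p = 0.000192). Its FPKM was 0, 1.24 and 2.19 in day-1 controls, 13.08, 13.20 and 15.83 with IAA at day 1, 2.91, 8.16 and 3.49 in day-3 controls and 0, 2.18 and 0 with IAA at day 3. The groups did not overlap on either day, with IAA above controls at day 1 and below them at day 3. The libraries of a group spread widely at these low levels, and the difference ranged from -5.40 to -4.37 on leaving out each library in turn. With a pseudocount of 0.1 FPKM it was -8.36.

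Unigene5971_All, far more abundant per length than the other named loci, gave a much tighter value. It was at 169.77, 169.44 and 172.04 FPKM in day-1 controls and rose to 1158.71, 1097.70 and 1138.46 FPKM under IAA on that day. In day-3 controls it was at 164.02, 166.27 and 153.54 FPKM, and with IAA at day 3 at 180.80, 177.65 and 183.57 FPKM. Both control groups and the day-3 IAA libraries thus lay close together, and only the day-1 IAA libraries stood apart. The rise was 6.64-fold at day 1 and 1.12-fold at day 3, and both passed the test as deposited (limma adjusted p = 4.06e-14 and 0.000903). The small day-3 effect was 0.16 as deposited and -0.18 with size factors, so its direction depends on the scaling. The difference was -2.56 ± 0.04 (SE; limma adjusted p = 5.00e-12).

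**Figure D5:**
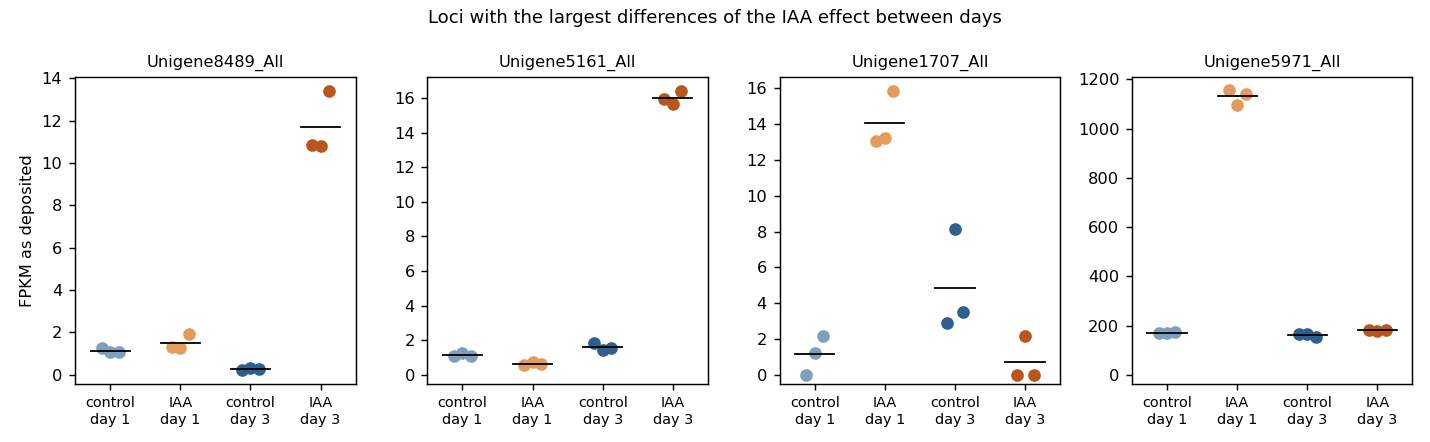
FPKM as deposited of the 4 named loci in each of the 12 libraries (points) with group means (lines); each panel has its own linear y axis. The first 2 loci are high in the day-3 IAA libraries (10.83 to 13.40 and 15.66 to 16.42 FPKM), the third and the fourth in the day-1 IAA libraries (13.08 to 15.83 and 1097.70 to 1158.71 FPKM).

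Other loci show the forms that the named ones do not. A single sequence with day-1 controls apart had the largest positive difference that met the naming criteria in the class of 20 FPKM or more. It was at 323.09, 301.24 and 306.92 FPKM in day-1 controls, 64.04, 67.57 and 72.97 FPKM in day-1 IAA libraries, 35.99, 37.29 and 34.18 FPKM in day-3 controls, while the day-3 IAA libraries had 57.25, 54.87 and 59.26 FPKM. All libraries other than the day-1 controls were low. IAA was below controls at day 1 and above them at day 3, and the difference was 2.83 ± 0.07 (SE; limma adjusted p = 9.48e-11).

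The mirror image was a single sequence that was low in day-1 controls, at 27.47, 33.43 and 30.21 FPKM. It was at 111.06, 113.38 and 116.84 FPKM with IAA at day 1, at 147.19, 145.23 and 157.23 FPKM in day-3 controls, while the day-3 IAA libraries had 109.86, 123.60 and 109.91 FPKM. The IAA groups of the 2 days overlapped, and their change over time was 0.01 (limma adjusted p = 0.953), while controls rose by 2.27. The difference was -2.26 ± 0.09 (SE; limma adjusted p = 3.28e-09).

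The form that was most frequent in the positive set, low day-3 controls, was largest in a single sequence at 19.16, 16.96 and 14.93 FPKM in day-1 controls, and the day-1 IAA libraries had 22.39, 18.47 and 18.73 FPKM. The day-3 controls were at 1.91, 1.64 and 1.74 FPKM, and the day-3 IAA libraries at 13.85, 15.74 and 14.74 FPKM. Only the day-3 controls stood apart, and the difference was 2.30 ± 0.13 (SE; limma adjusted p = 7.34e-08). The reverse, high day-3 controls, was largest in a cluster. It was at 17.40, 16.80 and 15.07 FPKM in day-1 controls, 18.49, 22.08 and 21.29 FPKM in day-1 IAA libraries, 77.55, 81.13 and 83.64 FPKM in day-3 controls, while the day-3 IAA libraries had 29.83, 25.73 and 26.41 FPKM. The difference was -1.84 ± 0.10 (SE; limma adjusted p = 6.22e-08).

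A brief fall under IAA was seen in a single sequence at 15.95, 18.10 and 17.73 FPKM in day-1 controls, and the day-1 IAA libraries had 6.60, 7.31 and 7.74 FPKM. At day 3 it was at 15.32, 15.92 and 16.06 FPKM in controls and at 17.27, 18.07 and 17.22 FPKM with IAA, so only the day-1 IAA libraries were low. The difference was 1.30 ± 0.08 (SE; limma adjusted p = 2.04e-07). Among very abundant loci, a cluster of 5 contigs had 1990.4 ± 63.7 FPKM in day-1 controls and 917.6 ± 14.7 FPKM in day-1 IAA libraries (SD, n = 3). The day-3 values were 822.6 ± 12.9 FPKM for controls and 794.1 ± 10.03 FPKM for IAA (SD, n = 3). Its difference was 1.07 ± 0.04 (SE; limma adjusted p = 1.77e-09), and it was the most abundant positive locus that met the naming criteria. The most abundant negative one was a single sequence whose controls were at 2057.7 ± 61.5 FPKM and IAA libraries at 3321.7 ± 41.6 FPKM on day 1, with 2495.8 ± 68.2 and 3008.7 ± 48.9 FPKM on day 3 (SD, n = 3). As deposited, IAA raised it on both days, by 0.69 and 0.27 on the log2 scale. With size factors the day-3 effect was -0.08. It was 0 after quantile normalization, which gives a rank the same value in every library. A top locus that keeps its rank is thus at 0 by construction. The difference as deposited was -0.42 ± 0.05 (SE; limma adjusted p = 2.70e-05).

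The precision of the fit bounded the difference for many loci. The 95% interval of the difference lay wholly within 0.5 of 0 on the log2 scale for 3684 of the 11044 loci as deposited, 4358 after quantile normalization and 2068 with size factors. As deposited, from the most to the least abundant class, these were 2671 of 3238, 724 of 1814 and 289 of 5992 loci. A difference within these limits can still be called, and no difference was called in 2554 of the 3684 loci, or 1680, 585 and 289 by class. The median half-width of the interval was 0.10, 0.25 and 0.48 in these classes, so a modest difference of a low locus was often not detectable. Of the 125 loci that were higher with IAA on both days and had no called difference, all as deposited, 104 had an interval within 0.5 of 0. Of the 275 that were lower on both days with no called difference, 265 did. The most abundant locus of all, a single sequence at 9544 to 17036 FPKM, had an IAA effect of -0.25 on day 1 and -0.28 on day 3, and its difference was -0.02 ± 0.10 as deposited (SE; limma adjusted p = 0.868). With size factors its difference was -0.45 (limma adjusted p = 0.0442).

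Summing contigs into loci hid differences between contigs in some clusters. Of the 1519 clusters with at least 2 tested contigs, 77 had contigs with called differences in opposite directions as deposited. The sum was not called in 42 of these, positive in 16 and negative in 19.

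Of the 30780 sequences, the authors' deposited tables list 836 with changed FPKM at day 1 and 2307 at day 3. All had a log2 ratio of at least 1.00 in size and a q-value by the authors of at most 0.000995. Their lists share 345 sequences, 41.3% of the day-1 list and 15.0% of the day-3 list. In the authors' deposited tables, and among these shared sequences, 137 were higher with IAA on both days, 75 lower on both, 63 higher then lower and 70 lower then higher. Unigene1707_All is among those that reversed, with a log2 ratio of 3.62 at day 1 and -2.74 at day 3 in the authors' deposited tables. Unigene8489_All and Unigene5161_All are in the authors' deposited table of day 3, with ratios of 5.45 and 3.32, and not in that of day 1. Unigene5971_All is in the authors' deposited table of day 1, with 2.73, and not in that of day 3. The authors' ratios compare FPKM without the added 1 of the log2(FPKM + 1) scale, so at low values they differ in size from the effects given above.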

How the data were processed

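RNA of 12 libraries, 3 in each of 4 groups, was sequenced. The authors deposited FPKM values per assembled sequence, per the file headers, and for each day a table with the log2 ratio, p-value and q-value of sequences that changed. Bowtie2 2.2.5 is named in the submitters' processing notes. Its role is not given in the sources used, nor are the assembler and the quantifier. All 30780 sequences were reduced to 25766 loci by summing contigs with the same cluster number. Reading that number as a cluster follows the form of the ID.

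Values were analysed as log2(FPKM + 1) in limma 3.58.1 (R 4.3.3) with 4 group means and an abundance trend in the variance prior, for loci with a mean of at least 1 FPKM. Tests were two-sided, with Benjamini-Hochberg adjustment over 11044 loci, and calls are at 0.05. Fold changes on this scale understate the change of low loci. No count test was run, because the FPKM of summed contigs do not return whole reads and absolute depth is unknown.

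Named loci were called under 4 scalings and, as deposited, without each library in turn. They reached 5 FPKM in the mean of some group and were the 2 with the largest difference in each direction. The members and lists were chosen with earlier results of these data known. Gene lists could not be applied, because the files pair no ID with a name. The method was tested on simulated data. These had no shift shared by many loci, so the test does not bear on the choice of scaling.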

Additional observations from a re-analysis of the deposited data

Results flagged for a closer look

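The interaction test found an IAA effect that differed between day 3 and day 1 for 3907 loci in the positive and 846 in the negative direction. Unigene8489_All had a difference of 3.10, which is close to the 3.10 of Unigene5161_All, and both had day-3 IAA libraries above all other libraries. Unigene1707_All had a difference of -4.85 with IAA libraries above controls at day 1 and below them at day 3. Unigene5971_All had a difference of -2.56 from day-1 IAA libraries that stood apart. Groups of 3 libraries are too small for a test of single outlying libraries.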

How the results depend on the processing

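Positive and negative calls numbered 3907 and 846 (82.2% positive). They became 1755 and 3597 with size factors from the median of ratios (32.8%), quantile normalization left 1321 and 1639 (44.6%), and scaling to a common sum gave 1294 negative calls and 72.1% positive. Positive differences of at least 1, 662 as deposited, were 1970 with a pseudocount of 0.1 FPKM, 1319 with the common sum, 155 with size factors and 147 after quantile normalization. Negative ones, 60 as deposited, were 173 with size factors, 137 after quantile normalization and 97 over single sequences instead of loci. The cause was not tested, except for what follows by construction. The smaller pseudocount enlarges changes of low loci. The common sum was larger than the summed FPKM of every library, so it raised all values before 1 was added. It thus also acted as a smaller pseudocount. Positive differences of at least 1 went from 342 to 976 among loci of 1 to 5 FPKM. Among loci of 20 FPKM or more they went from 122 to 110. This part of the common-sum counts was not separated from that of the scaling itself. Without each library in turn, positive calls were 3362 to 3779, negative calls 739 to 811, the positive share 80.8% to 82.7%, positive differences of at least 1 554 to 777 and negative ones 58 to 65. Leaving out the filter on low values or the variance trend, scaling to abundant loci and weighting libraries moved none of these counts by over 1.5 times and the share by under 10 percentage points.

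The 4 named loci kept their direction and passed the threshold in all 23 alternatives, with limma adjusted p at most 1.48e-05 for Unigene8489_All, 3.06e-06 for Unigene5161_All, 0.00273 for Unigene1707_All and 1.12e-07 for Unigene5971_All. Replicate numbers did not pair the libraries: residuals of same-numbered libraries of a day correlated at -0.04 to 0.05, and 3 of 12 libraries correlated best with their own number. With the replicate block within each day 3755 loci were positive and 851 negative, and with the block over both days 3757 and 795. The 95% interval of the difference had a median half-width of 0.48 in the lowest and 0.10 in the highest class of abundance.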
